A study of Homo sapiens with 4 samples.

Results

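The proteasome genes were examined here in MV4-11 cells, a human acute myeloid leukemia (AML) cell line, after knockdown of ANP32B, an acidic nuclear phosphoprotein that binds histones. Members were all protein-coding rows of the deposited expression table whose gene symbol starts with PSMA, PSMB, PSMC, PSMD or PSME followed by a number, which gave 43 of 18885 rows. Of these, 41 encode proteasome subunits, activators or assembly chaperones, and 2 only share the pattern (PSMC3IP, a meiotic recombination factor, and PSME3IP1, a partner of PSME3). A further 11 rows with such a symbol were not protein-coding and were left out, and PSMA8 and PSMB11, which encode the testis and thymus forms of core subunits, were not analysed here. The family was chosen with results of this same comparison known, so the values of its members are given as a description. Calls from the fit over all genes are shown beside the share of all genes called, and nothing is supported with them.

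The 4 RNA-seq libraries fall into 2 groups of 2, called sh-NC for the control and sh-ANP32B for the knockdown. The cells of both groups were MV4-11, and the knockdown used a lentiviral short hairpin RNA with puromycin selection of stable cells. The methods list several ANP32B hairpins without saying which one was sequenced. The deposited columns of both knockdown libraries carry the same name tag, whose meaning is not stated. If it stands for a single hairpin, off-target effects cannot be told apart from those of ANP32B. The control libraries are called NC in their titles and are labelled as carrying no shRNA and no treatment, while the paper names its control sh-NC. If they carry no hairpin, effects of infection and selection cannot be told apart from those of ANP32B. Nothing in the labels says that the 2 libraries of a group came from separate cultures, so every p-value measures only the spread between these libraries, which may be technical, and an exact permutation test of 2 against 2 libraries cannot go below a two-sided p of 0.33. In these bulk samples, fewer cells of a type and less RNA per cell cannot be told apart.

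The 26S proteasome degrades proteins that carry ubiquitin chains. Its 20S core is a stack of rings of alpha and beta subunits, in which PSMB6 (beta1), PSMB7 (beta2) and PSMB5 (beta5) hold the caspase-like, trypsin-like and chymotrypsin-like active sites, and beta5 is the main site bound by bortezomib and carfilzomib. A 19S cap of ATPases (PSMC) and non-ATPase subunits (PSMD) recognises, unfolds and feeds substrates into the core. In immune cells and under interferon, the catalytic subunits PSMB9 (beta1i), PSMB10 (beta2i) and PSMB8 (beta5i) take the place of the constitutive ones in newly built cores, and with the PA28 activator (PSME1 and PSME2) shape the peptides presented on MHC class I.

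The promoters of the genes on which the comparison of the beta subunits turns are shown first, from 250 bases before to 50 bases after the start site, as RefSeq gives them on GRCh38.p14. PSMB5 and PSMB8 have 2 windows each, and the one at the annotated canonical start is shown. PSMB5 carried the lowest log2 fold change of the family, PSMB8, PSMB9 and PSMB10 are its interferon-responsive counterparts, and PSME1 and PSME2 are the interferon-responsive activator genes. Capitals mark matches to GAAANNGAAA, a short form of the element bound by interferon regulatory factors, read on either strand. The windows lie at chr14:23034851-23035150 (minus strand) for PSMB5, chr6:32843998-32844297 (minus) for PSMB8, chr6:32853942-32854241 (plus) for PSMB9, chr16:67936801-67937100 (minus) for PSMB10, chr14:24135944-24136243 (plus) for PSME1 and chr14:24146561-24146860 (minus) for PSME2.
PSMB5: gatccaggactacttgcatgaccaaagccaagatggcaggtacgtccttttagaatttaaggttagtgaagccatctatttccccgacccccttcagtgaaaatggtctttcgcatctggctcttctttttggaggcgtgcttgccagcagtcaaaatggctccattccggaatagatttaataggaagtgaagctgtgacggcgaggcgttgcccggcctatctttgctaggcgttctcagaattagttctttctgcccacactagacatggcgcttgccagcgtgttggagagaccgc
PSMB8: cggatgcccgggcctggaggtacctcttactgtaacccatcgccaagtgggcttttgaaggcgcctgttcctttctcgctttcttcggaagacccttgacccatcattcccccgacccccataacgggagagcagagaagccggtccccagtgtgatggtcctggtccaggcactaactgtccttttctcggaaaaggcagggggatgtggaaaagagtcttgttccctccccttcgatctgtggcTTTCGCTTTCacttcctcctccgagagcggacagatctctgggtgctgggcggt
PSMB9: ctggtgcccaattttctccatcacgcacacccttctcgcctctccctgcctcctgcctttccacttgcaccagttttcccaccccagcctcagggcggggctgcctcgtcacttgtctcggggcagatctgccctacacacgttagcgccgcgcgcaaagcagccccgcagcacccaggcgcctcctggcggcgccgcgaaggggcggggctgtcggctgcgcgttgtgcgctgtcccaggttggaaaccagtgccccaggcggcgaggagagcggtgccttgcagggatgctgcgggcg
PSMB10: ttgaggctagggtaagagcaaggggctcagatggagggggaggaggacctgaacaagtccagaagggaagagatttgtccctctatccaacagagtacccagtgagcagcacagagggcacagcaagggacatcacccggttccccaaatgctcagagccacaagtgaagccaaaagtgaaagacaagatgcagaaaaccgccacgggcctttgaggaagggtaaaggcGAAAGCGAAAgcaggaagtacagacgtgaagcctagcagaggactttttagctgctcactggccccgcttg
PSME1: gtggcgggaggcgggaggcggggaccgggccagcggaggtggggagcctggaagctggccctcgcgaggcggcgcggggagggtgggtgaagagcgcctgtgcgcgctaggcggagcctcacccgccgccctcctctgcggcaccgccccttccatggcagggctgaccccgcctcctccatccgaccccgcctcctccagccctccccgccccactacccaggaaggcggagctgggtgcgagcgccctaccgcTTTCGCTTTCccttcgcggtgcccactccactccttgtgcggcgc
PSME2: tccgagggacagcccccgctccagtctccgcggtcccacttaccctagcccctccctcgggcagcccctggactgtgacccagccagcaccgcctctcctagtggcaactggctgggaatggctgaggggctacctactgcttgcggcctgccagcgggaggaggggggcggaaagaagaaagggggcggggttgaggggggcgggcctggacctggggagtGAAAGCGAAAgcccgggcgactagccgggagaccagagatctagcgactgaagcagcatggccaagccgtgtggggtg
The PSMB8, PSMB10, PSME1 and PSME2 windows held 1 match each, whereas the PSMB5 and PSMB9 windows held none.

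Values are TPM, an abundance unit in which reads are divided by transcript length and scaled to the same total in every library, so that levels can be compared between genes. Differences between groups were taken on log2(TPM + 1) with limma over the 16937 genes that reached 1 TPM in at least 2 libraries, all 43 members among them. Every SE of a log2 fold change is the moderated one of limma, which draws on the spread of all genes tested as well as that of the gene. A gene was called where its Benjamini-Hochberg adjusted p was below 0.05 and its log2 fold change was beyond 0.5. ANP32B itself stood at 358 and 364 TPM in the controls and at 54.1 and 49.3 TPM after knockdown, or 14.3% of the control mean. Across all genes tested, 10.1% were called lower and 17.9% higher, and the median log2 fold change was 0.08 with quartiles of -0.26 and 0.45. Lower genes made up 36.1% of all calls, but 47.1% after median-of-ratios scaling and 50.2% after quantile normalization, which shifted the median of all genes by -0.12.

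The knockdown libraries also differed in markers of monocytic cells, which are shown here because they moved with the groups. Of 14 monocyte and macrophage markers 11 were analysed, and all 11 were higher in sh-ANP32B. Of these, 10 were called higher, beside 17.9% of all genes tested. Their summed level was 1634 and 1605 TPM in the controls and 9063 and 9292 TPM after knockdown. LYZ (lysozyme), CST3 (cystatin C) and TYROBP (an adaptor of myeloid receptors) were among them, and CD14, CD163 and MRC1 were not analysed here. Of 9 myeloid leukemia markers 8 were analysed, with 2 called higher and 1 lower, beside 17.9% and 10.1% of all genes tested. Of 6 lymphoid markers 2 were analysed, and the erythroid, epithelial and fibroblast markers were not analysed here. The part of this difference in the proteasome values was not tested.

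The proteasome transcripts together were less abundant in the knockdown libraries. The summed level of the 41 proteasome genes was 5503 and 5461 TPM in the controls, with 4698 and 4531 TPM after knockdown. The knockdown libraries lay at 84.2% of the control mean, with no overlap between the groups. The share of mitochondrial genes in all TPM also moved with the groups, at 15.9% and 15.4% in the controls and 17.6% and 17.4% after knockdown, and its part in this was not tested. The log2 fold change was negative for 37 of the 41 genes, against 43.7% of all genes tested, with a median of -0.22 where all genes had 0.08. Most of these differences were small. Only 4 genes passed the call in the lower direction (PSMB5, PSMB9, PSMC3 and PSMD5) beside a background of 10.1%, and 0 in the higher direction beside 17.9%. PSMC3IP was also called lower, at 17.7 and 18.3 TPM in sh-NC and 9.96 and 12.2 TPM in sh-ANP32B, whereas PSME3IP1 had a log2 fold change of 0.09 and was not called. By an unadjusted p below 0.05 with the same limit on the fold, 6 of the 43 rows were lower and 0 higher, where 10.8% and 20.2% of all genes were. Without the limit on the fold, 23 of the 41 passed the adjusted p in the lower direction and 0 in the higher, where 19.7% and 26% of all genes did. Both sh-ANP32B libraries lay below both sh-NC libraries for 31 of the 41 genes and above both for 3, where 32.1% and 42.5% of all genes did so. Since the family was chosen from this comparison, nothing is read from these counts about chance.

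**Figure D1:**
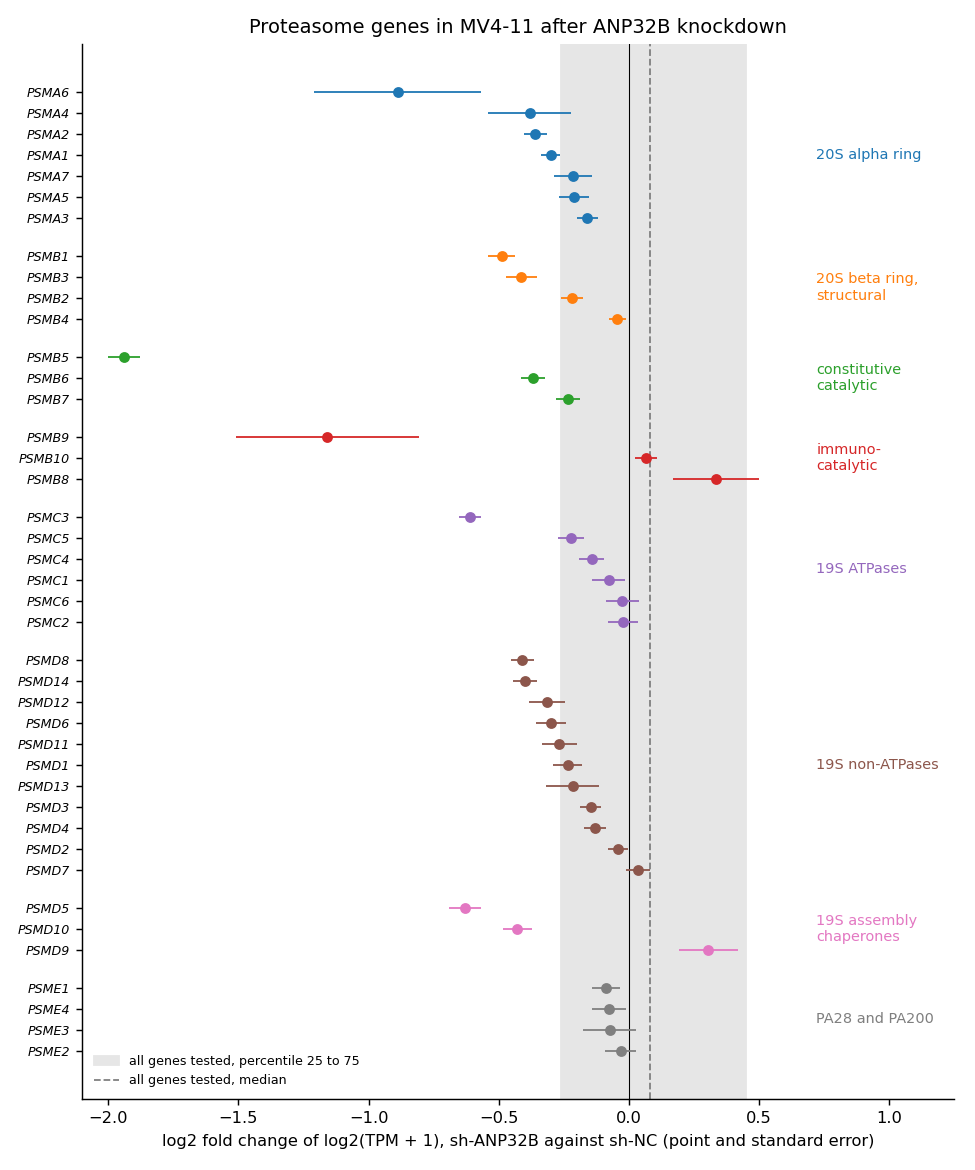
The log2 fold change of log2(TPM + 1) in sh-ANP32B against sh-NC (x axis) is plotted for each of the 41 proteasome genes (y axis), grouped and coloured by role, with a bar of 1 standard error to each side, the quartile range of all genes tested in grey and their median as a dashed line. The points lie to the left of 0 for 37 genes, PSMB5 stands farthest left at -1.94, and the immunoproteasome genes PSMB8 and PSMB10 lie to the right of 0.

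PSMB5, the catalytic beta5 subunit, was the member with the largest difference. It lies on chromosome 14 (hg38, 23016543 to 23035230, minus strand). Its level was 101 and 96.0 TPM in the controls and 25.6 and 24.3 TPM after knockdown. The groups were far apart and the libraries within a group close together, and the knockdown mean was 25.3% of that of the controls. Its log2 fold change was -1.94 ± 0.061 (SE, n = 2 per group), and 7 of the 16937 genes tested (0.0413%) had a lower one. Leaving out each library in turn gave values from -1.98 to -1.90. PSMB5 shares no exonic bases with another annotated gene, and the annotation names no pseudogene after it. Its nearest protein-coding neighbours on chromosome 14 among the deposited rows did not share the difference in size. AJUBA and C14orf93 on one side had log2 fold changes of -0.35 and 0.29, and CDH24 and ACIN1 on the other had -0.47 and 0.06. In the order of levels among the 41 genes, PSMB5 moved from place 26 in sh-NC to place 39 in sh-ANP32B, above PSMB8 and PSMB9.

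The other constitutive catalytic subunits were lower by much less. PSMB6, the beta1 subunit, was at 164 and 156 TPM in sh-NC and at 125 and 122 TPM in sh-ANP32B (log2 fold change -0.37 ± 0.046, SE). PSMB7, the beta2 subunit, was at 233 and 240 TPM in sh-NC and at 207 and 195 TPM in sh-ANP32B (-0.23 ± 0.046, SE). Neither reached the limit on the fold, although the groups did not overlap for either gene, where 32.1% of all genes were lower without overlap. The ratio of PSMB6 to PSMB5 was therefore 1.62 and 1.63 in the controls and 4.88 and 5.03 after knockdown, and that of PSMB7 to PSMB5 went from 2.29 and 2.51 to 8.07 and 8.03. PSMB5 supplied 20.4% and 19.5% of the summed TPM of the constitutive catalytic genes in the controls, and 7.17% and 7.11% after knockdown.

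The 3 immunoproteasome subunits did not move as a group. PSMB10 (beta2i) was at 104 and 103 TPM in sh-NC and at 110 and 107 TPM in sh-ANP32B, with a log2 fold change of 0.07 ± 0.043 (SE) that turned to -0.018 under median-of-ratios scaling. PSMB8 (beta5i) was at 6.87 and 5.14 TPM in sh-NC and at 8.02 and 7.51 TPM in sh-ANP32B, a log2 fold change of 0.33 ± 0.16 (SE) that was not called. Leaving out 1 library moved PSMB8 between 0.15 (without sh-NC replicate 2) and 0.51 (without sh-NC replicate 1), and quantile normalization gave 0.14. PSMB9 (beta1i) was at 7.07 and 4.31 TPM in sh-NC and at 2.94 and 1.18 TPM in sh-ANP32B, with a log2 fold change of -1.16 ± 0.35 (SE). PSMB9 and PSMB8 are neighbours on chromosome 6. The call of PSMB9 was not stable: it was lost without sh-NC replicate 1 (-0.86), without sh-ANP32B replicate 2 (-0.73) and with a pseudocount of 0.1 (-1.51). PSMB8 and PSMB9 share 139 exonic bases on opposite strands and both overlap PSMB8-AS1. Whether reads were counted by strand is not given in the sources used here, so the reads of these low genes could not be assigned with certainty. PSMB10 shares 640 of its 1626 exonic bases with ENSG00000261884 on the same strand. That gene was at 4.14 and 3.37 TPM in sh-NC and at 4.32 and 4.47 TPM in sh-ANP32B.

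**Figure D2:**
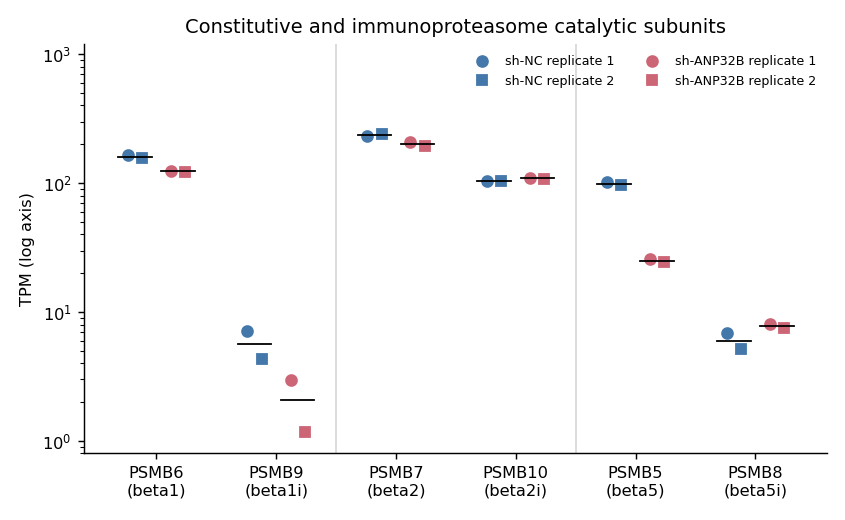
The level in TPM (log axis) of each catalytic subunit gene is plotted for every library, with constitutive and immunoproteasome partners side by side, circles for replicate 1, squares for replicate 2 and a line at the mean of 2 libraries. PSMB5 goes from about the level of PSMB10 to 25.6 and 24.3 TPM, whereas PSMB8 and PSMB9 lie below 10 TPM in all 4 libraries.

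Since a share within a library does not depend on the scaling between libraries, the immunoproteasome part of the catalytic subunit mRNA was computed for each library. PSMB8, PSMB9 and PSMB10 together made up 19.2% and 18.6% of the summed TPM of all 6 catalytic genes in sh-NC (18.9% ± 0.39, SD, n = 2), and 25.3% and 25.3% in sh-ANP32B (25.3% ± 0.038, SD, n = 2). The difference was 6.39 percentage points. It followed the constitutive sum, which was 498 and 492 TPM in sh-NC and 358 and 342 TPM in sh-ANP32B, while the immunoproteasome sum stood at 118 and 113 TPM against 121 and 116 TPM and overlapped between the groups. PSMB10 supplied between 88.2% and 92.5% of the immunoproteasome sum in every library. Without the pair of PSMB10 and PSMB7 the difference was 1.89 percentage points.

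By active site, the shares went different ways. The beta5i share, PSMB8 of PSMB8 plus PSMB5, was 6.34% and 5.08% in the controls and 23.8% and 23.6% after knockdown. The beta2i share, PSMB10 of PSMB10 plus PSMB7, was 30.9% and 30.0% in the controls and 34.7% and 35.4% after knockdown. The beta1i share, PSMB9 of PSMB9 plus PSMB6, was 4.13% and 2.68% in the controls and 2.30% and 0.954% after knockdown. The beta5i and beta2i shares were thus higher and the beta1i share lower in both knockdown libraries. On the log2(TPM + 1) scale, the mean log2 fold change of the immunoproteasome genes exceeded that of the constitutive ones by 0.59. This difference ranged from 0.43 under quantile normalization to 0.74 without sh-NC replicate 1. It rested largely on PSMB5 at -1.94, since PSMB6 and PSMB7 were at -0.37 and -0.23. The immunoproteasome genes went both ways, with PSMB8 at 0.33, PSMB10 at 0.07 and PSMB9 at -1.16. The difference without PSMB5 was not computed. These are shares of mRNA, and proteasome protein or activity was not measured in these libraries.

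**Figure D3:**
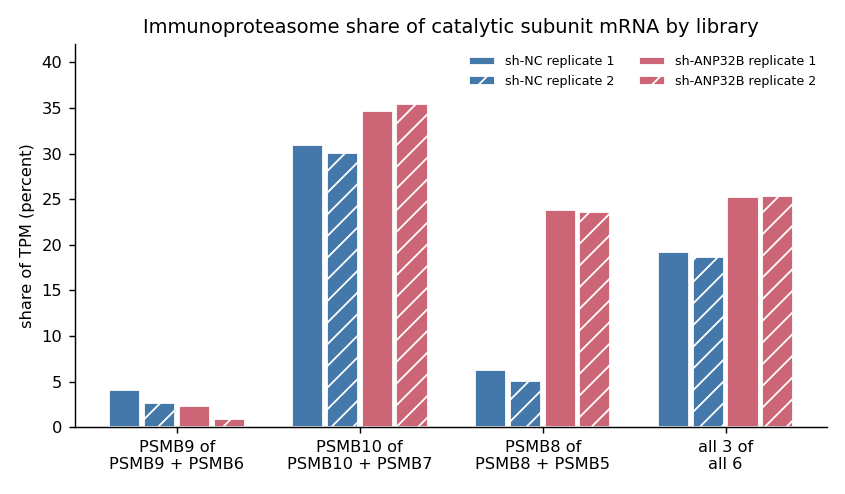
Bars give, for each of the 4 libraries, the percentage of TPM contributed by the immunoproteasome gene of each active site and by all 3 together, with hatching for replicate 2. The PSMB8 share is 23.8% and 23.6% in the sh-ANP32B libraries against 6.34% and 5.08% in the sh-NC libraries, and the PSMB9 share is the one that is lower in sh-ANP32B.

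The alpha subunits, which form the outer rings and the gate of the core, were all lower, with a median log2 fold change of -0.30 over 7 genes and no overlap between the groups for any of them, where 32.1% of all genes were lower without overlap. PSMA6 was the lowest, at 222 and 198 TPM in sh-NC and at 163 and 78.0 TPM in sh-ANP32B (-0.89 ± 0.32, SE). Its knockdown libraries differed widely from each other, and PSMA6 was not called. Without sh-ANP32B replicate 1 it was called, at -1.41, and without sh-ANP32B replicate 2 it was at -0.36, above PSMA2 at -0.39, so its place as the lowest rested on 1 library. An unnamed readthrough gene, ENSG00000258790, shares 919 exonic bases with PSMA6 on the same strand and was at 9.14 and 14.6 TPM in sh-NC and at 14.3 and 36.3 TPM in sh-ANP32B, highest in the library where PSMA6 was lowest. PSMA4 varied as well, at 149 and 183 TPM in sh-NC and at 147 and 109 TPM in sh-ANP32B (-0.38 ± 0.16, SE). PSMA4 was at -0.17 without sh-ANP32B replicate 2 and at -0.59, and called, without sh-ANP32B replicate 1. The differences of PSMA5 and PSMA3 were the smallest of the ring, with log2 fold changes of -0.21 and -0.16, where PSMA3 went from 193 and 187 TPM to 170 and 170 TPM and PSMA5 from 45.6 and 44.2 TPM to 38.7 and 38.6 TPM.

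The structural beta subunits, which hold no active site, were also lower without overlap, with a median of -0.32 over 4 genes and 0 calls, beside 32.1% of all genes lower without overlap and 10.1% called lower. PSMB1 (beta6) was at 279 and 300 TPM in sh-NC and at 211 and 200.1 TPM in sh-ANP32B (-0.49 ± 0.053, SE), just short of the limit on the fold. PSMB1 was called under median-of-ratios scaling (-0.57), without sh-NC replicate 1 (-0.54) and without sh-ANP32B replicate 1 (-0.53). PSMB3 (beta3) was at 139 and 133 TPM in sh-NC and at 97.3 and 107 TPM in sh-ANP32B (-0.41 ± 0.060, SE). PSMB2 (beta4) was at 166 and 162 TPM against 143 and 139 TPM (-0.22 ± 0.041, SE). PSMB4 (beta7), the most abundant transcript of the family in both groups, was close to level, at 500 and 493 TPM in sh-NC and 481 and 482 TPM in sh-ANP32B (-0.04, and 0.0094 under quantile normalization). The 14 constitutive core subunits, which are incorporated in equal numbers, thus became less even in mRNA. The coefficient of variation of TPM over them was 52.4% and 52.5% in the controls and 64.7% and 69.7% after knockdown.

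In the 19S cap, the ATPases had a median log2 fold change of -0.11 over 6 genes. The only one called was PSMC3 (Rpt5), where 10.1% of all genes were called lower. PSMC3 was at 135 and 136 TPM in sh-NC and at 87.2 and 89.6 TPM in sh-ANP32B, 65.2% of the control mean (-0.61 ± 0.043, SE). The libraries of each group lay close together and well apart from the other group. PSMC5 (Rpt6) was at 114 and 107 TPM against 95.5 and 93.7 TPM (-0.22 ± 0.049, SE). PSMC6 (Rpt4), at 80.9 and 75.7 TPM against 73.7 and 80.0 TPM, and PSMC2 (Rpt1), at 78.0 and 72.2 TPM against 74.6 and 73.1 TPM, had log2 fold changes of -0.03 and -0.02, and their libraries overlapped. PSMC2 shares exonic bases with PMPCB on the same strand.

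Of the 11 non-ATPase subunits, 10 were lower, with a median of -0.23. There were 0 calls, where 10.1% of all genes were called lower and 17.9% higher. PSMD8 (Rpn12) was at 149 and 144 TPM in sh-NC and at 112 and 108 TPM in sh-ANP32B (-0.41 ± 0.045, SE). PSMD14 (Rpn11), the deubiquitinase that removes ubiquitin chains as substrates enter, was at 79.6 and 79.6 TPM in sh-NC and at 60.2 and 60.1 TPM in sh-ANP32B (-0.40 ± 0.046, SE). Neither overlapped between the groups, where 32.1% of all genes were lower without overlap. At the other end, PSMD2 (Rpn1) was at 159 and 163 TPM against 157 and 157 TPM (-0.04), and PSMD7 (Rpn8), the partner of PSMD14, was at 129 and 135 TPM against 133 and 137 TPM (0.04, and -0.047 under median-of-ratios scaling). Over the 31 constitutive subunits of core and cap, the median was -0.23, or -0.31 relative to all genes and -0.18 relative to them under quantile normalization, and it was -0.23 also without PSMB5.

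Among the chaperones that assemble the base of the 19S cap, PSMD5 was at 40.6 and 39.6 TPM in sh-NC and at 25.6 and 25.5 TPM in sh-ANP32B (-0.63 ± 0.062, SE) and was called lower. PSMD10 (gankyrin) was at 49.6 and 48.6 TPM against 36.7 and 35.8 TPM (-0.43 ± 0.056, SE). PSMD9 was at 25.2 and 28.6 TPM in sh-NC and 30.4 and 36.5 TPM in sh-ANP32B (0.31 ± 0.11, SE), and was not called. PSMD9 ranged from 0.18 without sh-ANP32B replicate 2 to 0.43 without sh-ANP32B replicate 1. It shares 1307 of its 8773 exonic bases with ENSG00000256950 on the same strand.

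The activators that cap the core in place of 19S were nearly level, with a median of -0.07 over 4 genes. There were 0 calls, where 10.1% of all genes were called lower and 17.9% higher. PSME1 (PA28 alpha) was at 188 and 173 TPM in sh-NC and at 166 and 173 TPM in sh-ANP32B (-0.09), and PSME2 (PA28 beta) at 99.6 and 103 TPM against 104 and 94.8 TPM (-0.03). PSME3 (PA28 gamma), the nuclear form, was at 127 and 108 TPM against 120 and 103 TPM (-0.07). PSME4 (PA200) was at 28.6 and 28.9 TPM against 26.9 and 27.6 TPM (-0.08) and was the only one of the 4 whose groups did not overlap. Over all genes tested, 32.1% were lower without overlap.

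Genes around the proteasome were taken from 7 lists of 56 genes, all of which were tested, and 5 of them were called lower and 8 higher, beside the backgrounds of 10.1% and 17.9%. The lists were drawn up with earlier results of these data known. Of the 5 chaperones that assemble the 20S core, 3 fell and 0 rose, with a list median of -0.51. PSMG3 was at 95.1 and 94.5 TPM in sh-NC and at 67.1 and 65.3 TPM in sh-ANP32B (-0.51, limma adjusted p 0.000671). PSMG2 was at 63.3 and 60.6 TPM against 44.2 and 40.6 TPM (-0.54, limma adjusted p 0.00185). PSMG4 was the lowest of the list at -0.76 (limma adjusted p 0.0436), but its sh-NC libraries, at 10.5 and 16.7 TPM, differed widely, and it was not called without sh-NC replicate 2 (-0.45) or without sh-ANP32B replicate 2 (-0.60). PSMG2 and PSMG3 also dropped under the limit on the fold without sh-ANP32B replicate 2, at -0.48 and -0.49, and PSMG3 under quantile normalization, at -0.49. PSMG1, the partner of PSMG2, was at 102 and 96.4 TPM against 71.1 and 72.5 TPM (-0.46), and POMP, the maturation factor of the core, had a log2 fold change of -0.05.

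Among the 6 cap subunits and partners without a PSM symbol, 1 was called lower, beside 10.1% of all genes tested. This was SEM1 (Rpn15), the smallest subunit of the lid. It was at 35.3 and 39.4 TPM in sh-NC and at 16.4 and 15.8 TPM in sh-ANP32B (-1.16 ± 0.084, SE, limma adjusted p 0.00035). SEM1 had no overlap between the groups and lay below every 19S member named with a PSM symbol in its fold change. UCHL5, a deubiquitinase of the cap, was at 72.4 and 72.0 TPM against 57.7 and 55.9 TPM (-0.34), USP14, another, at 58.7 and 56.0 TPM against 49.5 and 52.7 TPM (-0.16), and neither was called. Of the 6 ubiquitin and E1 genes 0 were called. In the lower direction 1 passed the adjusted p of limma alone, where 19.7% of all genes did. This was RPS27A, which encodes ubiquitin fused to a ribosomal protein (-0.42).

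The transcription factor NRF1 (NFE2L1) drives proteasome genes when proteasome activity is short, and its route holds NGLY1 and DDI2, which activate it. None of the 8 genes of this list was called by limma, where 10.1% of all genes were called lower and 17.9% higher. Without the limit on the fold, 2 were lower and 1 higher at an adjusted p below 0.05. Over all genes these shares were 19.7% and 26%. The list median was 0.01. NFE2L1 was at 63.6 and 66.8 TPM in sh-NC and at 78.0 and 75.3 TPM in sh-ANP32B (0.23). NGLY1 was at 93.9 and 96.3 TPM against 72.1 and 80.6 TPM (-0.32), and MAFK, a partner of NRF1 on DNA, at 25.4 and 23.9 TPM against 19.4 and 20.3 TPM (-0.30). The route held differences of both signs.

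The interferon route that induces immunoproteasome genes was positive for all 11 genes, of which 5 rose and 6 were not called, with a median of 0.47. Over all genes tested, 43.7% had a negative value, 17.9% were called higher and 10.1% lower. STAT2 rose from 47.1 and 50.4 TPM to 122 and 111 TPM (1.24, limma adjusted p 0.000178), and IRF9, its partner in the complex that type I interferon activates, from 9.85 and 8.62 TPM to 23.4 and 22.2 TPM (1.22, limma adjusted p 0.000561). NLRC5, an activator of MHC class I genes, rose from 12.4 and 14.9 TPM to 20.9 and 21.7 TPM (0.61), and JAK2, a kinase of the interferon gamma receptor, from 6.69 and 6.88 TPM to 10.6 and 10.8 TPM (0.59). NLRC5 was not called without sh-NC replicate 1 (0.49), nor JAK2 under quantile normalization (0.42). IRF1, which acts on the PSMB8, PSMB9 and PSMB10 promoters, was at 8.40 and 9.99 TPM against 11.1 and 11.3 TPM (0.26) and was not called. PSMB8 and PSMB10 were not called, and the lower call of PSMB9 was not stable, as given above. Any link between these genes and the interferon route was not tested. Of 16 interferon-stimulated genes, 10 were analysed and 9 tested, of which 4 rose (IFI6, IFIT3, OAS1 and ISG15) and IFITM1 fell. OAS1 was not called under quantile normalization (0.59), without sh-NC replicate 2 (0.75) or without sh-ANP32B replicate 1 (0.64).

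Of 10 genes of MHC class I peptide loading, which receives the peptides the proteasome makes, 3 were called higher and 0 lower. Over all genes tested, 17.9% were called higher and 10.1% lower. TAPBP (tapasin) rose from 20.3 and 20.4 TPM to 35.9 and 37.6 TPM (0.82, limma adjusted p 0.000511), TAPBPL from 9.42 and 10.8 TPM to 15.4 and 17.6 TPM (0.66) and ERAP1 from 23.7 and 22.8 TPM to 34.1 and 32.9 TPM (0.51). ERAP1 dropped under the limit on the fold under 4 of the alternatives, with values from 0.43 to 0.48. B2M, the light chain of MHC class I, was at 595 and 576 TPM against 804 and 804 TPM (0.46), within the limit on the fold. TAP1 and TAP2, the peptide transporter genes that neighbour PSMB8 and PSMB9, had log2 fold changes of 0.37 and -0.38 and were not called.

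**Figure D4:**
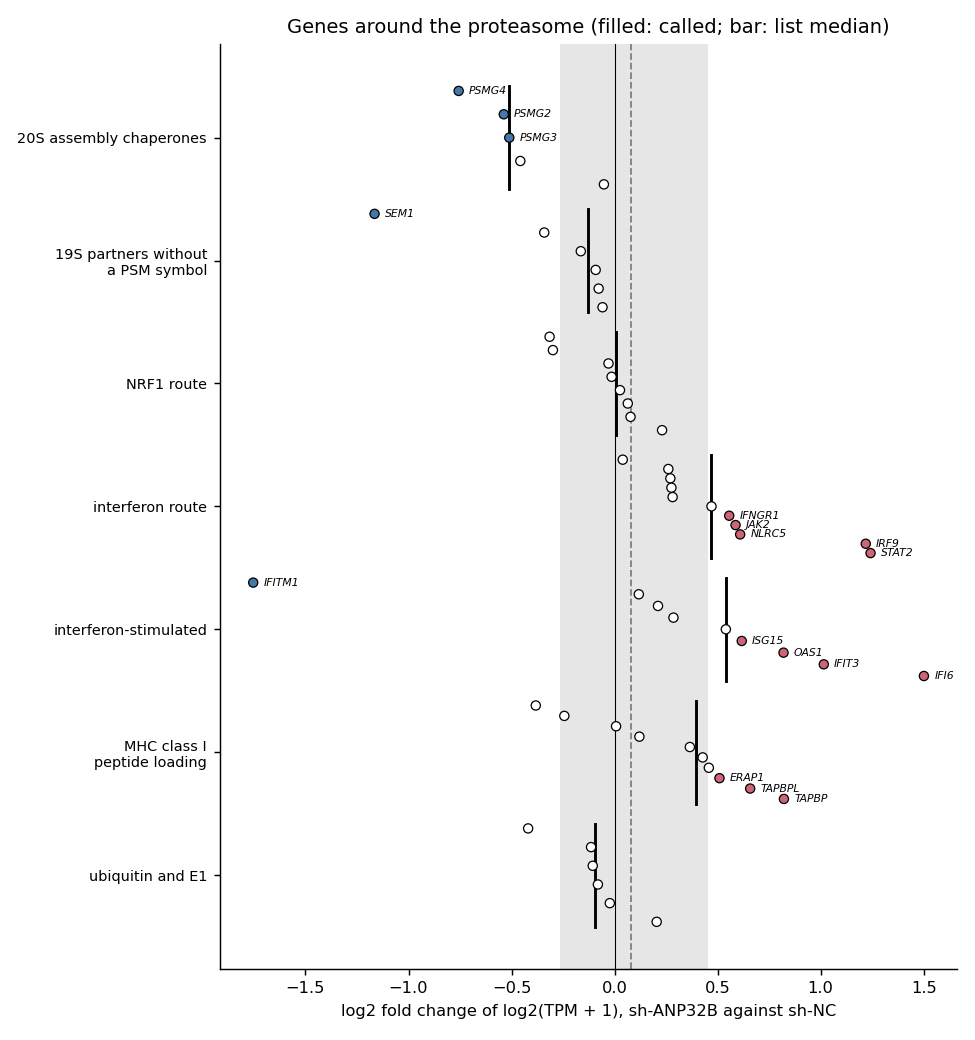
Each point is a gene of a list around the proteasome, placed by its log2 fold change of log2(TPM + 1) in sh-ANP32B against sh-NC (x axis) and filled blue or red where it was called lower or higher, with a bar at the median of the list, the quartile range of all genes in grey and their median as a dashed line. The 20S assembly chaperones lie left of 0, with SEM1 the called gene among the 19S partners, and all 11 genes of the interferon route lie right of 0.

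Promoter windows of 36 of the 41 genes were found in the RefSeq table, as 43 windows, and those of PSMA7, PSMB1, PSMB6, PSMB7 and PSMD4 were not. GAAANNGAAA was found in 6 of the 43 windows (14%), against 3.57% of all 35116 windows of the same length, in the promoters of PSMA4, PSMB4, PSMB8, PSMB10, PSME1 and PSME2. In the 4 interferon-responsive genes shown above, the match began between 28 bases before and 5 bases after the start site. None of these 6 genes was called, where 10.1% of all genes tested were called lower and 17.9% higher. TTCNNNGAA, a form bound by STAT dimers, was in 7 of the 43 windows (16.3%, against 7.66%), and PSMB5 held 2 matches and PSMB8 held 1. TGACNNNGC, the antioxidant response type of site that NRF1 and NRF2 bind with small MAF proteins, was in 13 windows (30.2%, against 13.3%), PSMB9, PSMD5, PSME1 and PSME2 among them but not PSMB5. CCAAT was in 18 windows (41.9%, against 34.6%), PSMB5, PSMB9 and PSMC3 among them, and CACGTG in 3 (6.98%, against 7.26%). The CCAAT match of PSMB5 lay in its other window (chr14:23035171-23035470), which is not printed above. All motifs were searched on both strands and no match overlapped one of another motif. A match describes letters in a window and not a bound site.

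**Figure D5:**
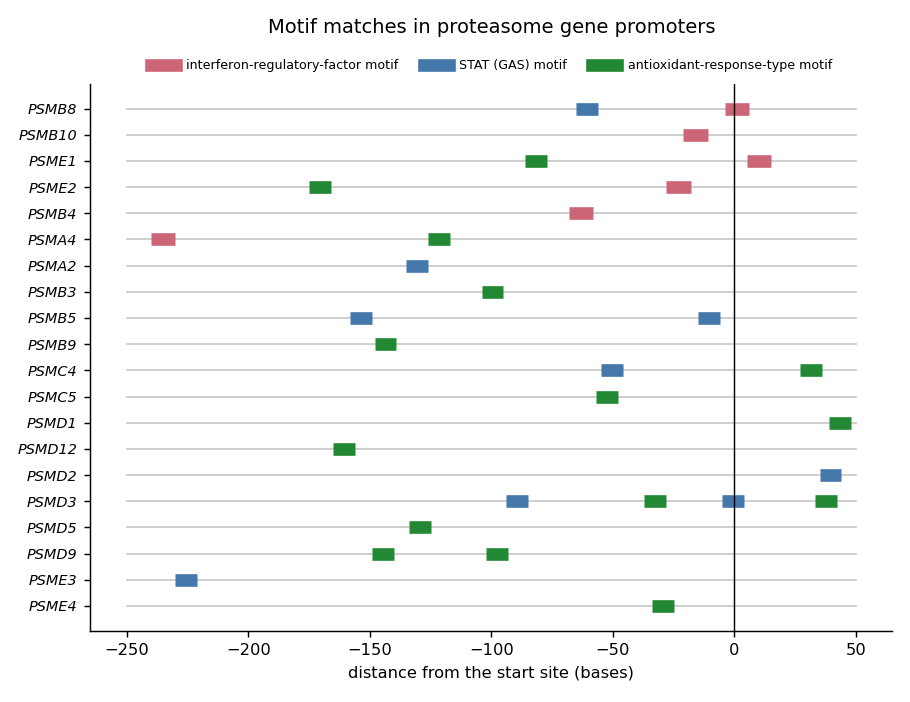
Each line stands for a gene that held a match to the interferon regulatory factor (GAAANNGAAA), STAT (TTCNNNGAA) or antioxidant response (TGACNNNGC) motif. Coloured blocks give the place of each match by its distance in bases from the start site of its window (x axis, 0 at the vertical line). For PSMA4 the interferon regulatory factor and antioxidant response matches come from different windows. The interferon regulatory factor matches of PSMB8, PSMB10, PSME1 and PSME2 lie near the start site, and PSMB5 holds 2 STAT matches.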

How the data were processed

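RNA of the MV4-11 libraries was prepared with an Illumina TruSeq RNA kit, and reads were aligned to hg38 with HISAT2 2.0.5, per the labels and the study's methods. The authors deposited TPM per gene, with a lowest row mean of 0.50 TPM. The quantifier, its annotation and the use of strand are not given in the sources used here, and TPM keep no depth, so sequencing depth is unknown. Of 18885 Ensembl IDs, 17290 were in GENCODE 44, which gave symbols and positions. Because the deposited values are TPM, the count test of the study's methods was replaced by limma 3.58.1 (R 4.3.3, trended variance) on log2(TPM + 1), a scale that understates the change of low genes. The limits of the call are those stated with the results. The script was tested on simulated data. The members, lists and tests were chosen with earlier results of these data known. Values in every library were given for the catalytic and PA28 genes, for the 2 lowest and 2 highest members of each other group and for up to 4 genes of each list with the largest absolute change, and POMP, IRF1, TAP1, TAP2 the interferon-stimulated genes and the overlapping and neighbouring genes were added after their values were seen. Alternatives were the pseudocount, the filter, 2 other scalings, other limits, a replicate block and leaving out each library. Motifs were searched in RefSeq promoter windows with Python 3.11.15. Same-numbered libraries did not deviate together (correlation of deviations -0.023). The genes of 1 list, of shuttle factors, are counted in the totals but not reported here.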

Additional observations from a re-analysis of the deposited data

How the results depend on the processing

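Depth is unknown, and with 2 libraries per group 1 library decides several calls. Genes called lower went from 1712 to 3342 without a limit on the fold and to 273 with a limit of 1, and genes called higher from 3024 to 1136 with a limit of 1. The 5 members called lower became 24 without that limit and 2 with a limit of 1, the 5 pathway genes called lower 13 and 1, and the 8 called higher 16 and 2. Leaving out each library in turn gave 1517 to 1680 genes lower and 2357 to 2677 higher, 4 to 8 members lower (8 without sh-ANP32B replicate 1) and 0 higher, 2 to 5 pathway genes lower (2 without sh-ANP32B replicate 2) and 6 to 9 higher. It also gave a median of the constitutive subunits of -0.27 to -0.21 (-0.33 to -0.29 relative to all genes), a difference of immunoproteasome and constitutive genes of 0.45 to 0.74, and a share difference of 6.11 to 6.67 percentage points. Relative to all genes, the median was -0.18 under quantile normalization, and the share difference 1.89 percentage points without PSMB10 and PSMB7. Under a replicate block, 1671 genes were called lower and 2853 higher, 6 members lower and 0 higher, and 4 pathway genes lower and 8 higher. The block left the fold changes as they were (median -0.23, -0.31 relative to all genes, difference 0.59), PSMA6 passed with it and PSMG4 did not. The numbers share no stated origin.

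Differences near 0 changed sign. Quantile normalization gave 0.0094 for PSMB4, and median-of-ratios scaling gave -0.018 for PSMB10, -0.047 for PSMD7 and -0.0057 for NFE2L2. With each library left out in turn, PSMC2 ranged from -0.078 to 0.031 (the latter without sh-NC replicate 1), PSMC6 from -0.084 to 0.032 (without sh-ANP32B replicate 1, and above 0 also without sh-NC replicate 1), PSME2 from -0.097 to 0.033 (without sh-ANP32B replicate 2) and PSME3 from -0.19 to 0.040 (without sh-NC replicate 1, and above 0 also without sh-ANP32B replicate 2). The cause was not tested. The number of the 41 proteasome genes with a negative value was 37, 39 under median-of-ratios scaling, 36 under quantile normalization and 34 to 37 with a library left out. Over 76 named genes, 906 of 987 comparisons with an alternative kept direction and call, 31 lost the call, 40 gained it and 10 changed sign. The replicate block, the filters and the other limits keep the main fold change, so no sign could change under them. A gene not called also could not pass a fold limit of 1. The count kept is therefore no measure of stability.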
